A study of Mus musculus with 12 samples.

Results

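Intermediate filament genes of glia, neural progenitors and neurons, 9 in all, were followed across 5 groups of mouse cells on 12 Affymetrix Mouse Gene 1.0 ST arrays, out of 19938 genes measured. The 9 genes are Gfap, Vim, Nes, Synm, Nefl, Nefm, Nefh, Ina and Prph. They were picked as a named family, with earlier results of these arrays known. For each symbol the probe set that carries that symbol alone and has the highest mean over the 12 arrays was used. All 9 symbols were found, and only Ina had more than 1 such probe set, with a mean log2 intensity of 8.27 on the one used and 7.22 on the other. The probe sets were thus chosen by the mean over all arrays, which is not tested.

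Astrocyte iPSCs (2 arrays) were established from the reprogrammed astrocytes and carry the Sox1-GFP reporter allele (genotype Sox1+/-). MEF iPSCs (2 arrays) are 1 published line, iPS-MEF-Ng-20D-17, made from mouse embryonic fibroblasts (MEFs), with a Nanog-GFP-IRES-Puro reporter instead. Both iPSC groups grew on mitomycin C-treated MEF feeder layers with 15% serum or 15% serum replacement and LIF at 1500 U/ml, and the labels do not say which of the 2 supplements each culture had. Day 6 cells (3 arrays) were sorted as Sox1-GFP-positive at day 6 after retroviruses carrying Oct4, Klf4, Sox2 and c-Myc (OKSM) were added to Sox1-GFP-negative astrocytes, in embryonic stem cell medium with 15% serum and LIF at 1000 U/ml. Neural stem cells (2 arrays) came from the telencephalon of Sox1-GFP embryos of day 12.5 to 14.5 and grew without serum in FGF and EGF. Astrocytes (3 arrays) were cultured from cortex of Sox1-GFP mice at postnatal day 3 in medium with 10% fetal bovine serum and sorted for absence of GFP. Thus 4 of the 5 groups share 1 disrupted copy of Sox1, and age, medium, feeder layer and reporter go with the groups. Replicates are called biological, but the labels do not tie them to separate animals or cultures, so each p reflects only the spread among these arrays, which may be technical. Day 6 cells without GFP were not analysed here, so altered expression and the choice of cells by sorting cannot be told apart.

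Intermediate filaments are rope-like polymers of coiled-coil proteins, and each cell type builds them from its own set of genes. Vimentin (Vim), a type III protein, is made by progenitors, astrocytes and many mesenchymal cells. GFAP (Gfap), also type III, is the defining filament of mature and reactive astrocytes, while nestin (Nes), a large type IV protein, marks neural stem cells. Synemin (Synm) is a type IV partner that cannot form filaments by itself. Neurons use the light, medium and heavy neurofilament chains (Nefl, Nefm, Nefh) together with alpha-internexin (Ina) in the central nervous system and peripherin (Prph) in peripheral nerves. Alpha-internexin appears early in developing neurons, and the neurofilament chains follow.

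The labels of the groups were compared with marker lists that hold none of the 9 filament genes. The summed intensity of 16 astrocyte markers was 41852 to 46257 in astrocytes and at most 11462 on any other array. The 12 measured pluripotency markers summed to 18496 to 21820 in the 2 iPSC groups and at most 1546 elsewhere. The 16 neural stem cell markers summed to 26652 to 27811 in neural stem cells, 21096 to 23265 in astrocytes and at most 3687 in the other groups. Replicate arrays correlated across probe sets with r between 0.992 and 0.996. Array medians lay between 6.61 and 6.71 on the log2 scale, and RMA values carry no detection call, so a level near or under those medians is called dim here.

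**Figure D1:**
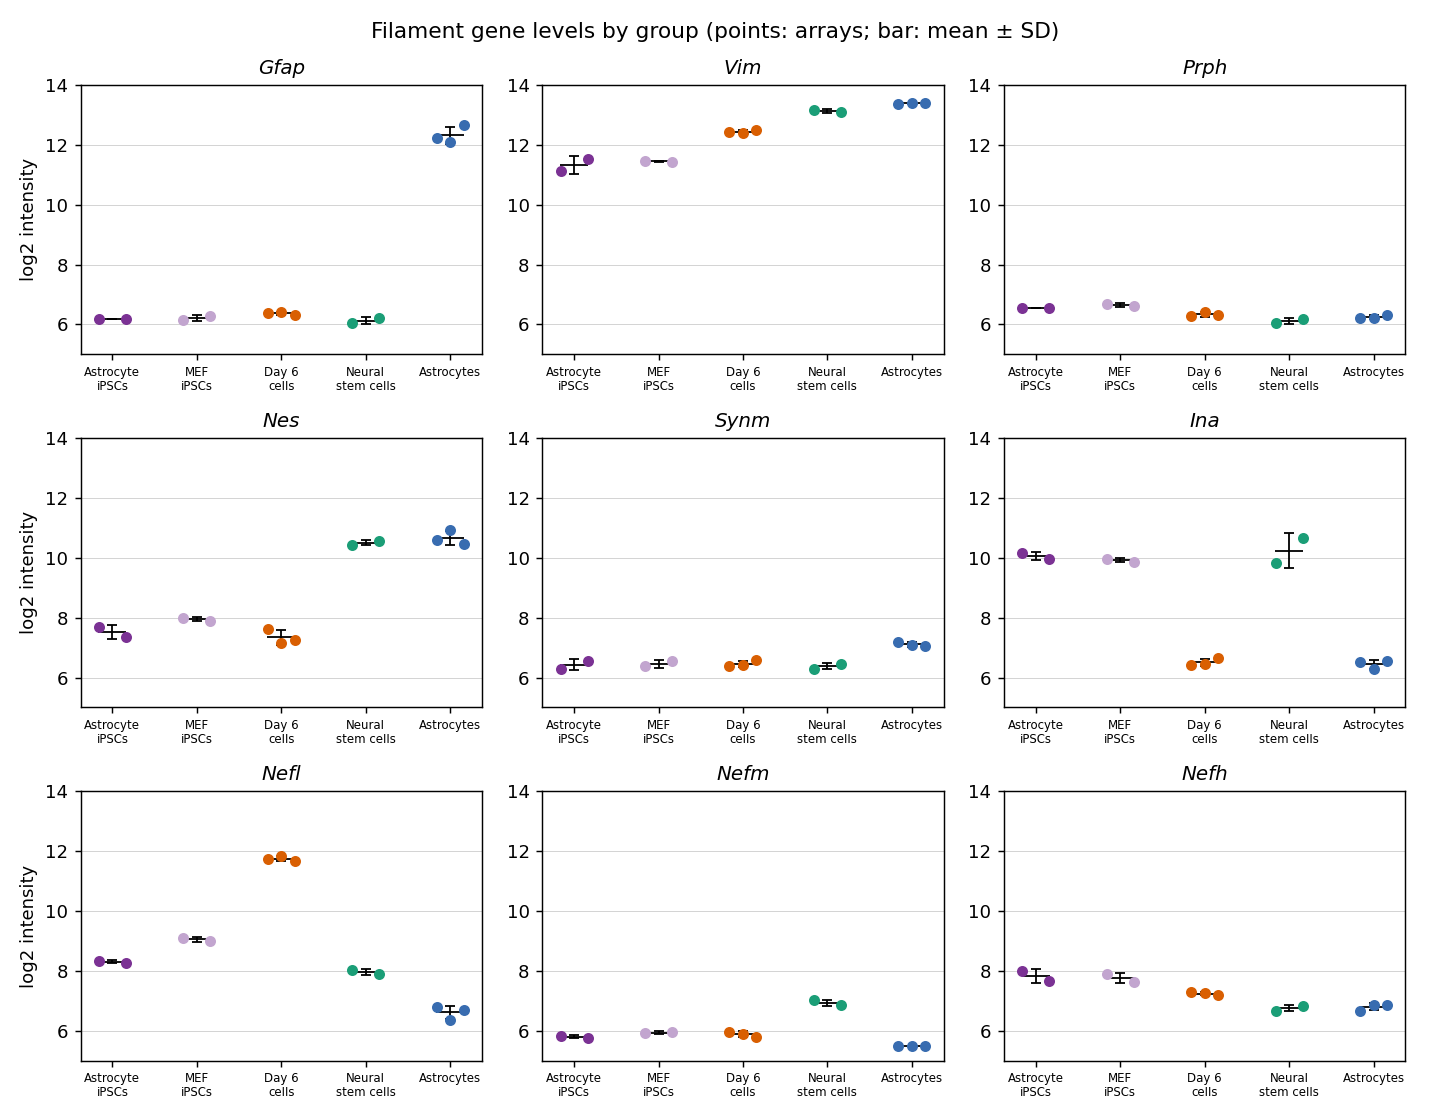
Log2 intensity of the 9 filament genes in the 5 groups. Points are arrays, the bar is the group mean and the whiskers are 1 SD. Gfap is high in astrocytes alone, Nefl is highest in day 6 cells at a mean of 11.75, and Ina is near 10 in the iPSC groups and neural stem cells but at 6.51 in day 6 cells and 6.44 in astrocytes.

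Gfap showed the widest range of the 9 genes. Its log2 intensity was 6.17 and 6.17 in astrocyte iPSCs, 6.14 and 6.27 in MEF iPSCs, 6.39, 6.41 and 6.32 in day 6 cells and 6.05 and 6.20 in neural stem cells. In astrocytes it was 12.22, 12.10 and 12.65. The 3 astrocyte arrays stood far above the other 9, all of which were dim. Differences between groups were fitted with limma over all 19938 genes and a gene was called where its p, adjusted by Benjamini and Hochberg's method, was under 0.05 and its log2 fold change at least 1 in size. Gfap fell by 5.95 ± 0.12 (SE, log2) in day 6 cells against astrocytes (adjusted p = 1.66e-11). Since the day 6 level is dim, the size of this difference depends on the floor of the values, and it was -6.25 with 16 subtracted before log2. Neural stem cells were lower than astrocytes by nearly as much, with a log2 fold change of -6.20 ± 0.13 (adjusted p = 7.83e-11). No pair among the 4 dim groups passed the test, and the largest of those log2 fold changes was 0.25 ± 0.13, between day 6 cells and neural stem cells (adjusted p = 0.157). In bulk samples fewer Gfap-making cells and less Gfap RNA per cell cannot be told apart, and this holds for every gene below. The astrocyte markers moved with Gfap: 13 of 16 fell and 0 rose in day 6 cells against astrocytes, where 16.9% of all genes were called. Their sum was 3808 to 4062 in day 6 cells, against 41852 to 46257 in astrocytes, and Aqp4, the astrocyte water channel, was at -4.87 ± 0.07. Their part in the Gfap result was not tested.

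Vim was bright in every group and stepped down from the neural cells to the pluripotent ones. Its log2 intensity was 11.13 and 11.53 in astrocyte iPSCs, 11.46 and 11.44 in MEF iPSCs, 12.43, 12.39 and 12.50 in day 6 cells, 13.16 and 13.08 in neural stem cells and 13.36, 13.39 and 13.38 in astrocytes. The 3 levels of neural, day 6 and pluripotent cells did not overlap. Astrocyte iPSCs were lower than astrocytes, with a log2 fold change of -2.05 ± 0.10 (adjusted p = 1.07e-08), and lower than day 6 cells at -1.11 ± 0.10 (adjusted p = 6.96e-06). Day 6 cells lay at -0.94 ± 0.09 against astrocytes and -0.68 ± 0.10 against neural stem cells, both under the fold limit although their adjusted p were 2.8e-06 and 0.000214. With cyclic loess normalization the first of these passed the limit at -1.30, and without astrocyte iPSC replicate 1 the fold change against day 6 cells missed it at -0.91. Neural stem cells and astrocytes were not separated (-0.26 ± 0.10, adjusted p = 0.0538).

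Synm, a partner of vimentin in glia and muscle, was dim outside astrocytes. It measured 6.30 and 6.55 in astrocyte iPSCs, 6.37 and 6.55 in MEF iPSCs, 6.38, 6.43 and 6.58 in day 6 cells, 6.30 and 6.46 in neural stem cells and 7.19, 7.10 and 7.04 in astrocytes on the log2 scale. Only the astrocyte arrays lay above their array medians, and they did not overlap with any other group. The differences were small, at log2 fold changes of -0.65 ± 0.09 in day 6 cells (adjusted p = 7.13e-05) and -0.73 ± 0.10 in neural stem cells (adjusted p = 8.01e-05) against astrocytes, and none reached the fold limit.

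Nes was high in both neural cultures and low in the rest. Its log2 intensity was 7.70 and 7.36 in astrocyte iPSCs, 8.0 and 7.90 in MEF iPSCs and 7.63, 7.16 and 7.25 in day 6 cells. It was 10.44 and 10.57 in neural stem cells and 10.60, 10.94 and 10.47 in astrocytes. The neural arrays overlapped each other, as did those of day 6 cells and astrocyte iPSCs, and a wide gap lay between the 2 sets. For this stem cell marker, neural stem cells were not separated from the cultured astrocytes (-0.16 ± 0.16, adjusted p = 0.493). Nes fell by 3.32 ± 0.15 (log2) in day 6 cells against astrocytes (adjusted p = 5.29e-09) and was lower than in neural stem cells at -3.16 ± 0.16 (adjusted p = 5.61e-08). Astrocyte iPSCs and day 6 cells were not separated (0.18 ± 0.16, adjusted p = 0.488). Of the 16 other neural stem cell markers, 10 were lower and 0 higher in day 6 cells than in neural stem cells, where 8.88% of all genes were called, with the glial factor Olig2 at -5.85 ± 0.17 and the fatty acid carrier Fabp7 at -5.76 ± 0.14. Their part in the Nes result was not tested.

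Gfap, Vim and Nes were lower together in both iPSC groups than in astrocytes (for MEF iPSCs 20.1% of all genes were called), and their proximal promoters are shown to set them side by side. Each is the stretch of 250 bases that ends at the base before the RefSeq start site (build GRCm38.p6), read on the gene's strand, with CpG dinucleotides in capitals. The Gfap stretch is chr11:102897201-102897450 on the minus strand, that of Vim chr2:13574061-13574310 on the plus strand and that of Nes chr3:87970843-87971092 on the plus strand.
Gfap: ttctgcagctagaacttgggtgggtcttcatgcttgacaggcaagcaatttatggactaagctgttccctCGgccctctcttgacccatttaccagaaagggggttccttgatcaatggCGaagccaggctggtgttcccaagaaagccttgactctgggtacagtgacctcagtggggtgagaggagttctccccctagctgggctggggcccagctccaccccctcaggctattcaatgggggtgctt
Vim: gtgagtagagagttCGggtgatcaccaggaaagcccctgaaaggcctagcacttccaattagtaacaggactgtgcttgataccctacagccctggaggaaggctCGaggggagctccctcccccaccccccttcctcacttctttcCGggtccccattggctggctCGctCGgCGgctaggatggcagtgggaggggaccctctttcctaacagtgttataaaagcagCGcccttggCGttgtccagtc
Nes: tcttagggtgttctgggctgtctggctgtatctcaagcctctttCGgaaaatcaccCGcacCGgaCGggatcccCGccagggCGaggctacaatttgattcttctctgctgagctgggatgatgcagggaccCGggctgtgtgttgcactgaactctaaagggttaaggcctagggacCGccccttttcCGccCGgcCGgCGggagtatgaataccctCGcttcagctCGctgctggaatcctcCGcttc
The Gfap stretch holds 2 CpG, that of Vim 8 and that of Nes 15, against a median of 6 over 32851 promoters of the same length. In all, 6 short motifs were searched on both strands, each by itself, so that matches of different motifs could overlap. Of all promoters, 12.4% hold TATAAA, 32.7% hold GGGCGG and 33.8% hold CCAAT, while 7.02% hold TTCNNNGAA, 6.02% hold CACGTG and 16.5% hold ACAAAG. The Vim stretch holds TATAAA once, 32 bases before the start, and CCAAT at 196 and 94 bases before it. The Nes stretch holds GGGCGG at 73 and 62 bases before the start, and none of the 6 motifs' letters are in the Gfap window. Of the 9 genes, 6 matched this table, and Ina had the most CpG among them, 25. A match is a description of letters and not of a factor's binding.

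Ina divided the groups along another line than the glial and progenitor filaments. Its log2 intensity was 10.15 and 9.96 in astrocyte iPSCs, 9.96 and 9.87 in MEF iPSCs and 9.83 and 10.65 in neural stem cells. It was 6.42, 6.46 and 6.64 in day 6 cells and 6.51, 6.29 and 6.54 in astrocytes, which are dim levels. The 6 high arrays and the 6 dim ones did not overlap, with a gap wider than the range within either set. Ina in astrocyte iPSCs exceeded that in day 6 cells by 3.55 ± 0.19 log2 units (adjusted p = 1.23e-07), a size that rests on a dim day 6 level and was 3.81 with 16 subtracted before log2. Day 6 cells were lower than neural stem cells at -3.73 ± 0.19 (adjusted p = 4.88e-08) and were not separated from astrocytes (0.07 ± 0.17, adjusted p = 0.791). Within the high set, astrocyte iPSCs and neural stem cells were not separated either (-0.18 ± 0.21, adjusted p = 0.551). The other probe set of Ina, which covers a transcript that the first one also lists, gave the same calls. Its called fold changes were smaller in size, 2.62 for astrocyte iPSCs against day 6 cells and -2.62 for day 6 cells against neural stem cells. Between the iPSC groups, not called on either probe set, it was larger, 0.31 against 0.14.

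Nefl, the chain that neurofilaments need to assemble, was highest in day 6 cells. Its log2 intensity was 8.34 and 8.27 in astrocyte iPSCs, 9.10 and 8.99 in MEF iPSCs, 11.75, 11.83 and 11.67 in day 6 cells, 8.04 and 7.89 in neural stem cells and 6.78, 6.35 and 6.69 in astrocytes. No group overlapped another, and the order from the top was day 6 cells, MEF iPSCs, astrocyte iPSCs, neural stem cells and astrocytes. Nefl rose in day 6 cells by 5.14 ± 0.10 against astrocytes (adjusted p = 1.71e-11), or 5.40 with 16 subtracted before log2, since the astrocyte level is dim. It was higher than in neural stem cells by 3.79 ± 0.11 (adjusted p = 1.14e-09), rank 18 of all genes. Both iPSC groups were lower than day 6 cells, at -3.45 ± 0.11 for astrocyte iPSCs (adjusted p = 3.55e-09) and -2.71 ± 0.11 for MEF iPSCs (adjusted p = 2.3e-08). For MEF iPSCs against day 6 cells 6.11% of all genes were called. These 4 comparisons share the day 6 arrays. Further down the order, astrocyte iPSCs and MEF iPSCs differed by -0.74 ± 0.13 (adjusted p = 0.00558) and astrocyte iPSCs and neural stem cells by 0.34 ± 0.13 (adjusted p = 0.0485), both under the fold limit. Neural stem cells exceeded astrocytes by 1.36 ± 0.11 (adjusted p = 1.64e-06).

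The medium and heavy neurofilament chains followed other orders. Nefm, the medium chain, measured 5.82 and 5.75 in astrocyte iPSCs, 5.91 and 5.97 in MEF iPSCs, 5.97, 5.90 and 5.79 in day 6 cells, 7.01 and 6.87 in neural stem cells and 5.50, 5.49 and 5.49 in astrocytes on the log2 scale. Only the 2 neural stem cell arrays lay above their array medians. Nefm rose there against astrocytes by 1.44 ± 0.07 (adjusted p = 3.2e-08), while day 6 cells stood at 0.39 ± 0.07 against astrocytes (adjusted p = 0.000296, under the fold limit). The astrocyte level is dim, and with 16 subtracted before log2 the rise in neural stem cells was 1.87. Day 6 cells were lower than neural stem cells at -1.05 ± 0.07 (adjusted p = 6.01e-07), a call lost without day 6 replicate 3, where it came just short of the limit, or without neural stem cell replicate 1 (-0.98).

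Nefh, the heavy chain, measured 7.99 and 7.65 in astrocyte iPSCs, 7.89 and 7.63 in MEF iPSCs, 7.29, 7.25 and 7.18 in day 6 cells, 6.67 and 6.82 in neural stem cells and 6.67, 6.87 and 6.85 in astrocytes. The iPSC arrays were the highest and the day 6 arrays lay between them and the neural cells. Nefh in astrocyte iPSCs exceeded that in astrocytes by 1.02 ± 0.11 log2 units (adjusted p = 1.09e-05) and neural stem cells by 1.07 ± 0.12 (adjusted p = 2.99e-05). Without astrocyte iPSC replicate 1 both missed the fold limit, at 0.85 and 0.90. The first also missed it without astrocytes replicate 1 (0.96) and with array weights (0.99), and the second came just short without neural stem cell replicate 1. Nefh in astrocytes and neural stem cells is near the array medians, and with 16 subtracted before log2 the first was 1.14 and the second 1.20. Day 6 cells stood at 0.44 ± 0.10 against astrocytes (adjusted p = 0.00314), under the limit.

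Prph, the filament of peripheral neurons, was dim in all groups, between 6.03 and 6.69, and lay above the array median on 1 of 12 arrays. Its largest log2 fold change among the 10 pairs of groups was 0.55 ± 0.08, MEF iPSCs over neural stem cells (adjusted p = 0.000189). No comparison passed the fold limit. None of the 8 measured peripheral neuron and neural crest markers was called in any of the 10 pairs by limma. In day 6 cells 16.9% of all genes were called against astrocytes and 8.88% against neural stem cells. On all day 6 arrays 4 of the 8 were under the array median, and 7 were in each other group. Of 10 microglia markers, 0 were called in day 6 cells against astrocytes or neural stem cells, with the same shares of all genes. On all arrays of a group, 8 of them were under the median in day 6 cells, 9 in neural stem cells and 6 in astrocytes. With so few and mostly dim genes, these counts do not show that such cells were absent.

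**Figure D2:**
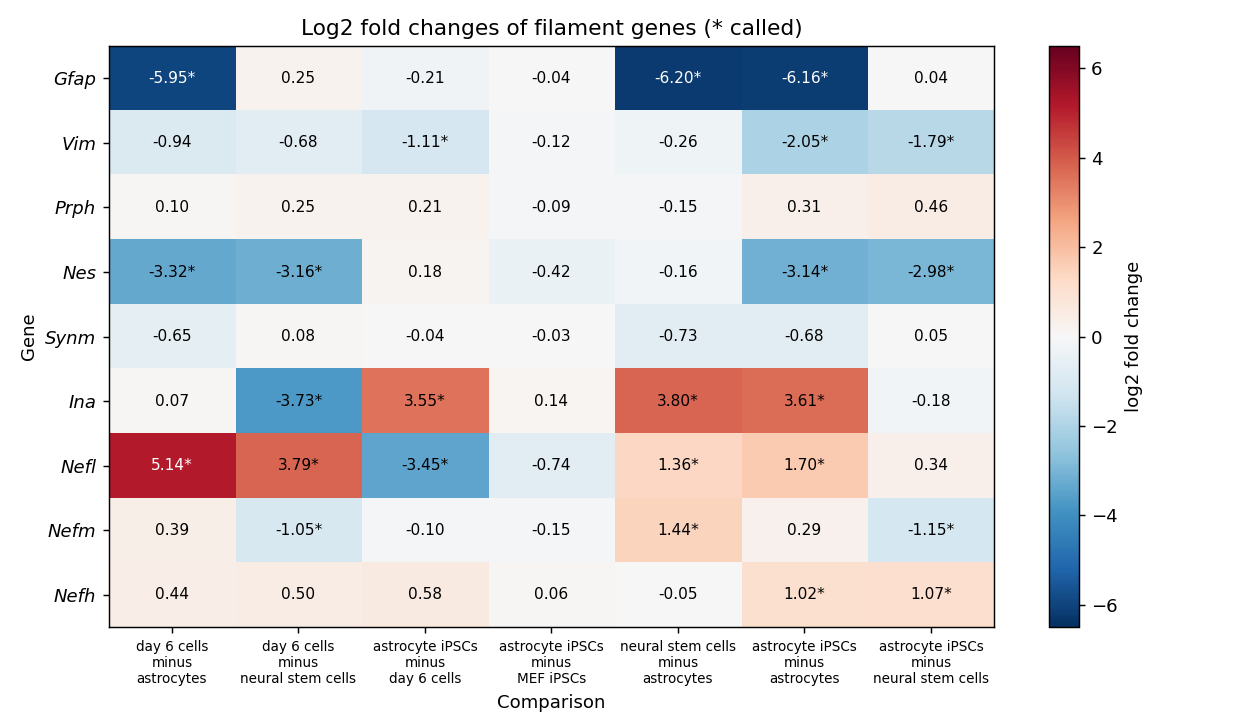
Log2 fold changes of the 9 filament genes (rows) in 7 comparisons (columns), first-named group minus the second. An asterisk marks an adjusted p under 0.05 with a fold change of at least 1 in size. The row of Nefl runs from 5.14 in day 6 cells against astrocytes to -3.45 in astrocyte iPSCs against day 6 cells, and the row of Prph stays within 0.46 of 0.

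Set beside the share of all genes called, the 9 genes were called as follows. In day 6 cells against astrocytes, 3 of 9 were called, Nefl higher and Gfap and Nes lower, with 16.9% of all genes called. Against neural stem cells 4 of 9 were called in day 6 cells, Nefl higher and Nes, Nefm and Ina lower, with 8.88% of all genes called. Astrocyte iPSCs against day 6 cells gave 3 of 9, Ina higher and Vim and Nefl lower, with a background of 6.11%. The medians of the 9 log2 fold changes were 0.07, 0.08 and -0.04 in these comparisons, against 0.04, 0.07 and -0.03 over all genes. With so few members and a choice made with results known, these shares describe the list and are not a test of it.

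The remaining comparisons give the same 9 genes between established cell types. Neural stem cells against astrocytes had 4 of 9 called, Nefl, Nefm and Ina higher and Gfap lower, where 14.6% of all genes were called. Astrocyte iPSCs against astrocytes had 6 of 9 called, Nefl, Nefh and Ina higher and Gfap, Vim and Nes lower, where 20.8% of all genes were called. Astrocyte iPSCs against neural stem cells had 4 of 9 called, Nefh higher and Vim, Nes and Nefm lower, where 12.5% of all genes were called. The 2 iPSC groups differed in 0 of 9 by this rule in limma, where 0.742% of all genes were called. Nefl alone had an adjusted p under 0.05 there, as did 5.77% of all genes, and at an unadjusted p under 0.05 there were 2 of 9, Nes and Nefl.

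Most neuron markers did not go with Nefl in day 6 cells. Of 17 measured neuron markers, 0 rose and 5 fell in day 6 cells against astrocytes, a share of 29.4% against 16.9% of all genes. Against neural stem cells 1 was higher and 14 lower, a share of 88.2% against 8.88% of all genes. Rtn1 and Map2, a reticulon and a dendritic microtubule protein, fell against astrocytes, with log2 fold changes of -3.11 ± 0.10 and -2.88 ± 0.08. Dcx and Gap43, proteins of migrating and growing neurons, were at -3.90 ± 0.23 and -3.70 ± 0.09 against neural stem cells. The 1 higher marker was Stmn2, which encodes a microtubule-destabilising protein of growing axons. Its mean was 12.22 in day 6 cells, against 10.90 in neural stem cells (1.32 ± 0.23, adjusted p = 0.000747) and 12.44 in astrocytes (-0.22 ± 0.20, adjusted p = 0.412). The summed intensity of the list was 7376 to 7433 in day 6 cells, 13890 to 17983 in neural stem cells and 10707 to 12867 in astrocytes. Such sums are of linear values and weigh the brightest genes most, so they do not measure neuron content. In astrocytes Stmn2 and Rtn1 had means of 12.44 and 11.25, against 5.45 for Dcx. Rbfox3, Snap25, Syp, Syt1, Dcx and Elavl4 were under the array median on all 3 day 6 arrays. The other groups were alike except neural stem cells: 6 markers were under it on all astrocyte arrays, 7 in astrocyte iPSCs and 8 in MEF iPSCs. Under the fold limit, Uchl1 (0.65 ± 0.17, adjusted p = 0.00595) and Elavl4 (0.53 ± 0.13, adjusted p = 0.00411) were above astrocytes in day 6 cells. Syp, Stmn3 and Syn1 were below them. The part of neurons in the Nefl level was not tested.

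Ina and Nefm in neural stem cells went with a high neuron list. In neural stem cells against astrocytes 12 of the 17 neuron markers rose and 1 fell, where 14.6% of all genes were called, with Dcx at 3.95 ± 0.23 and Elavl4, an RNA-binding protein of neurons, at 3.16 ± 0.14. Between the 2 neural stem cell arrays, replicate 2 had the higher Ina (10.65, against 9.83 in replicate 1) and the higher neuron sum (17983, against 13890), while its Nefm was the lower one. The part of neurons in the levels of Ina and Nefm there was not tested. In the astrocyte iPSCs, where Ina was also high, the neuron sum was 3952 to 4252. Of 17 markers, 0 were higher there than in day 6 cells and 2 lower, Stmn2 (-1.50 ± 0.23) and Rtn1 (-1.18 ± 0.11). That is 11.8% of the list, against 6.11% of all genes called. In the MEF iPSCs, where Ina was high as well, the sum was 4799 to 4924. Of 17 markers, 2 were higher there than in day 6 cells, Gap43 (1.35 ± 0.09) and Elavl3 (1.16 ± 0.18). Stmn2 was lower (-1.02 ± 0.23), and these calls are 17.6% of the list, against 6.11% of all genes.

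The level of Vim in the iPSC groups stood beside the markers of fibroblasts, the cells of the feeder layer. Of 15 fibroblast and feeder markers, 9 were higher and 0 lower in astrocyte iPSCs than in day 6 cells, where 6.11% of all genes were called. Among them were the matrix proteoglycans Dcn (4.46 ± 0.43) and Lum (3.22 ± 0.26). In MEF iPSCs against day 6 cells 6 were higher and 1 lower, where 6.11% of all genes were called too. Dcn was at 3.57 ± 0.43 there, and Lum was under the array median on all MEF iPSC arrays. Their sum was 4521 and 7818 on the 2 astrocyte iPSC arrays, 4146 and 3859 on the MEF iPSC arrays, 2083 to 2167 in day 6 cells and 11499 to 12196 in astrocytes. In the same order of arrays, Vim was at 11.13 and 11.53 in astrocyte iPSCs and 11.46 and 11.44 in MEF iPSCs. The part of feeder cells in the Vim level was not tested.

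**Figure D3:**
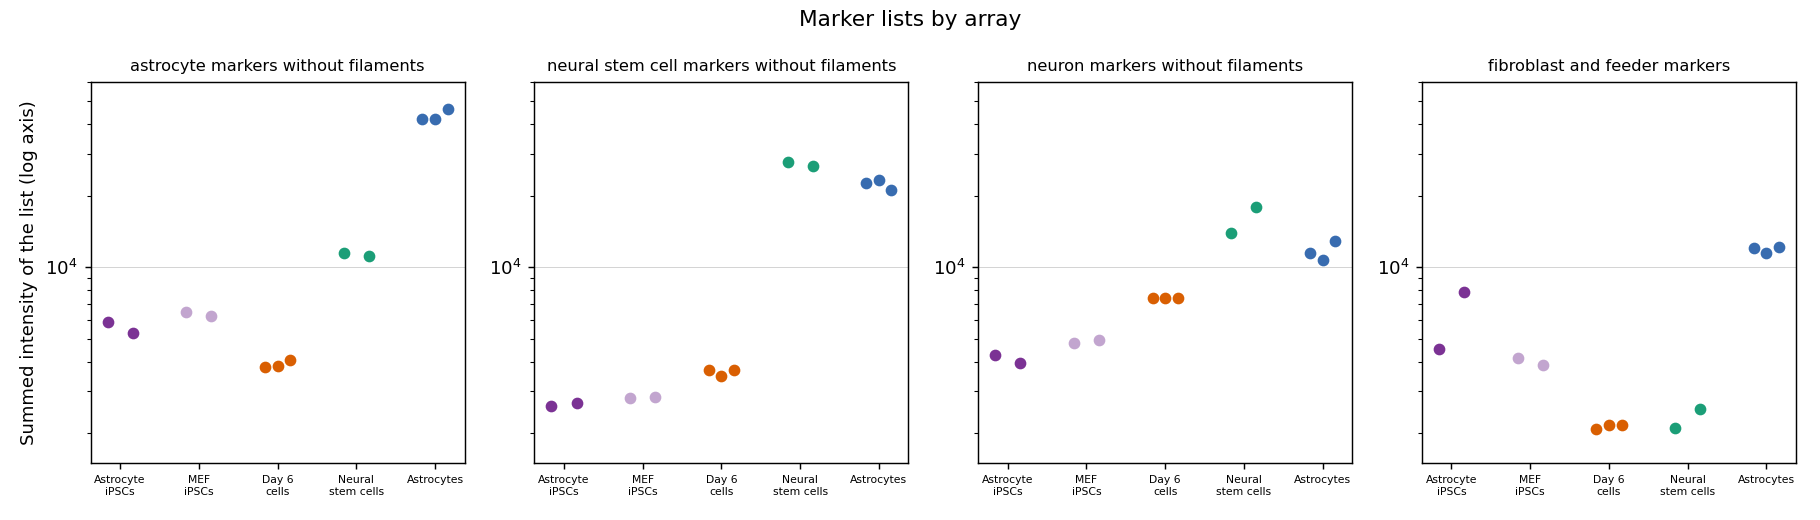
Summed intensity (log axis) of 4 marker lists on each array, by group. A sum weighs the brightest genes of its list most. The neuron list sums to 7376 to 7433 in day 6 cells, below the astrocyte and neural stem cell arrays, and the fibroblast list differs between the 2 astrocyte iPSC arrays, at 4521 and 7818.

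The genes that flank the filament genes were taken from RefSeq gene order, 4 protein-coding genes on each side, and those named were chosen after their values were seen. Nefl and Nefm are next to each other in the genome, with Dock5 on the far side of Nefl. Dock5, an activator of the small GTPase Rac, was higher in day 6 cells too, by 2.23 (adjusted p = 3.52e-09) against astrocytes and 3.19 (adjusted p = 2e-09) against neural stem cells on the log2 scale. On the other side of Nefl, Nefm is followed by Adam7, Adamdec1 and Adam28, which stood between 0.02 and 0.09 against astrocytes. Nes is followed by Bcan, the brain proteoglycan brevican, which had nearly the same fold changes as Nes, -2.90 (adjusted p = 4.29e-09) against astrocytes and -3.13 (adjusted p = 1.71e-08) against neural stem cells. Near Gfap, C1ql1, a secreted protein of the C1q family, lies behind Kif18b and was lower in day 6 cells than in astrocytes at -2.88 (adjusted p = 1.14e-09), while Kif18b, a mitotic kinesin, was higher at 1.37 (adjusted p = 4.52e-06).

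**Figure D4:**
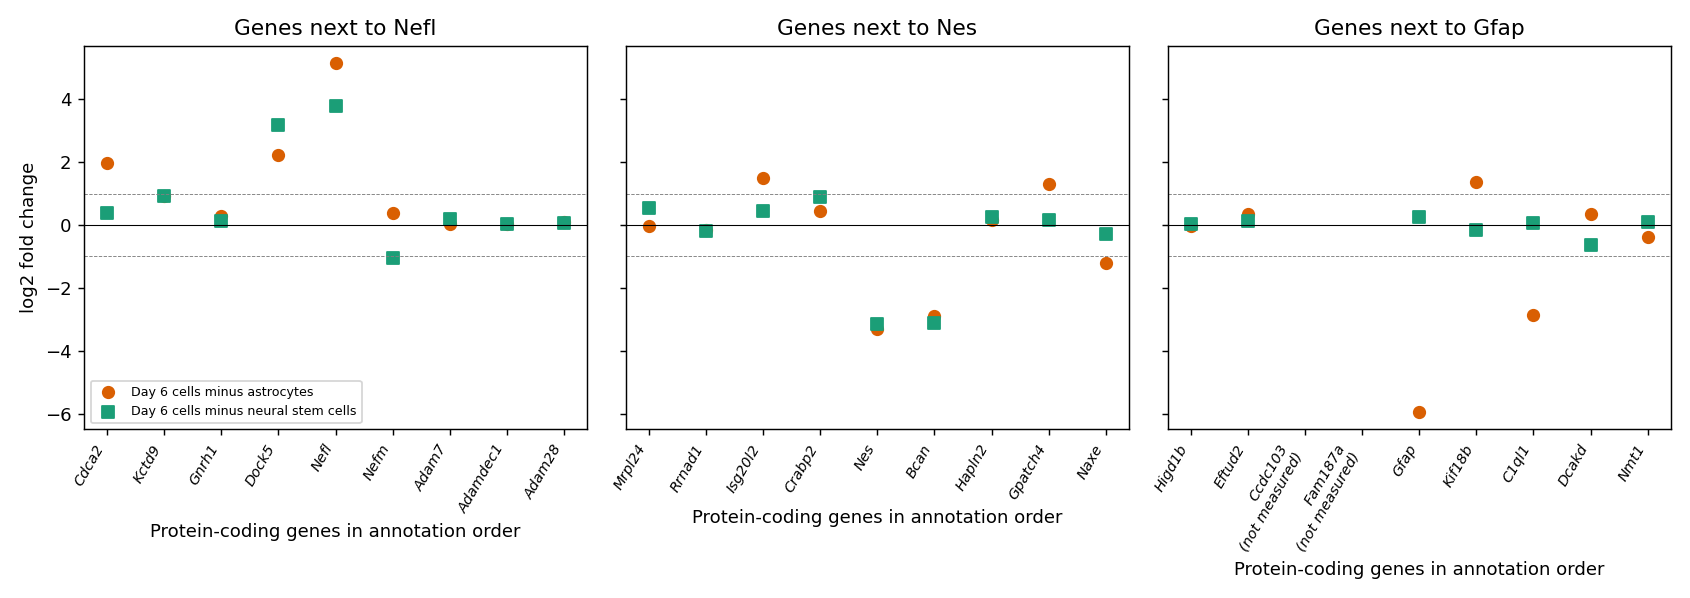
Log2 fold changes of day 6 cells against astrocytes (circles) and against neural stem cells (squares) for the protein-coding genes on either side of Nefl, Nes and Gfap, in annotation order. Dashed lines mark fold changes of 1 and -1. Nefl (5.14 and 3.79) and Dock5 (2.23 and 3.19) are high together while Nefm is at 0.39 and -1.05.

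Genes with the most similar profile were found by the root mean square (RMS) difference of the 5 centred group means on the log2 scale. For Gfap these were Ecrg4, a secreted peptide precursor (0.16), Cp, the copper carrier ceruloplasmin (0.21), and Slco1a4, an organic anion transporter (0.27). Nes was nearest to Ednrb, an endothelin receptor of glia and neural crest (0.23), Mtss2 (0.23) and Camk2a, a neuronal kinase (0.25). For Ina they were Fndc3c1 (0.23), Igf2bp3, an RNA-binding protein of fetal tissues (0.34), and Sfrp2, a secreted Wnt modulator (0.50). The genes closest to Nefl were Slc39a8, a zinc and manganese transporter (0.50), Irak3, an inhibitor of Toll-like receptor signalling (0.59), and Fetub (0.61). Vim was nearest to Celsr2 (0.08), Nefm to Dennd11 (0.04) and Nefh to Oser1 (0.01).

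Keratins, lamins and other filament genes outside the neural family were listed too. Of 23 measured, 3 rose and 1 fell in day 6 cells against astrocytes (median log2 fold change 0.17, against 0.04 over all genes). That is 17.4% of the list, near the 16.9% of all genes called. Sync, syncoilin, a filament protein best known from muscle, fell by 3.61 ± 0.12, to 6.88 in day 6 cells, against 10.50 in astrocytes. Lmnb1 and Lmna, which encode lamins of the nuclear envelope, rose by 1.99 ± 0.12 and 1.15 ± 0.14, and Krt17, a keratin of stressed epithelia, by 1.10 ± 0.11. Krt17 was dim in astrocytes and neural stem cells, with means of 5.99 and 6.07. In astrocyte iPSCs against day 6 cells, Krt18, a keratin of simple epithelia, was higher by 2.03 ± 0.16 and Lmna lower at -1.81 ± 0.16. They were the only calls among the 23, which is 8.7% of the list, against 6.11% of all genes. Against neural stem cells, Lmna (2.43 ± 0.16) and Krt17 (1.03 ± 0.12) were higher in day 6 cells, with 0 lower, 8.7% of the list and near the 8.88% of all genes.

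Of 10 measured proteins that link or protect filaments, 2 rose and 2 fell in day 6 cells against astrocytes, where 16.9% of all genes were called. Dsp, desmoplakin, which ties filaments to desmosomes, rose by 3.01 ± 0.16, and Hspb1, a small heat shock protein, by 1.05 ± 0.13. Cryab, the chaperone alpha-B crystallin that binds GFAP and vimentin, fell (-2.60 ± 0.13), as did Macf1, a linker to microtubules and actin (-1.64 ± 0.08). Against neural stem cells 5 of 10 were higher in day 6 cells and 0 lower, where 8.88% of all genes were called, including Plec, the cytolinker plectin (2.55 ± 0.09). Of 6 kinases that act on filaments, Aurkb, Plk1 and Cdk1, which phosphorylate vimentin or nestin in mitosis, rose in day 6 cells against astrocytes by 1.80 ± 0.13, 1.74 ± 0.16 and 1.39 ± 0.13. That is 50% of the list, against 16.9% of all genes. Neural stem cells exceeded astrocytes in these genes too, by 1.75 ± 0.14, 1.82 ± 0.18 and 1.41 ± 0.14, as did both iPSC groups. Between day 6 cells and either iPSC group 0 of the 6 were called, where only 6.11% of all genes were called in each comparison. Cdk5r1, the neuronal activator of Cdk5, was lower in day 6 cells than in neural stem cells at -1.88 ± 0.19. It was the only call among the 6 there, where 8.88% of all genes were called.

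Transcription factors known to act on these filament genes, such as Stat3, Sox9 and the nuclear factor I proteins on Gfap, formed a list of 14 measured genes. In day 6 cells against astrocytes 0 rose and 6 fell, where 16.9% of all genes were called, led by Sox9 (-4.38 ± 0.12) and Lhx2 (-2.90 ± 0.11). Sox2, which the retroviruses also delivered, was at -2.50 ± 0.07 and Nfia at -1.56 ± 0.07. In astrocyte iPSCs against day 6 cells 4 were higher and 5 lower, where 6.11% of all genes were called. The largest in size were lower, Nfib at -3.65 ± 0.14 and Nfix at -3.13 ± 0.21. In neural stem cells against astrocytes 1 rose and 1 fell, Neurod1 at 1.52 ± 0.25 and Nfix at -1.86 ± 0.21. That is 14.3% of the list and near the 14.6% of all genes called. Both levels of Neurod1 are dim, with means of 6.66 in neural stem cells and 5.14 in astrocytes.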

How the data were processed

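Total RNA of 12 samples was amplified and hybridised to Affymetrix Mouse Gene 1.0 ST arrays, per the labels. The deposited values are probe set intensities. The submitters' processing notes name RMA (robust multi-array averaging), and its software and settings are not given in the sources used here. The deposited intensities were linear, from 20.2 to 15436, and log2 was taken before every step. RMA normalizes between arrays, so differences are relative to the bulk of genes. Of 28853 probe sets, 21789 had 1 gene symbol in the platform annotation, 1621 several and 5443 none, which left 19938 genes. Symbols were looked up by gene ID in RefSeq for 21698 probe sets, and 0 changed. Promoter sequences and gene order came from RefSeq (GRCm38.p6).

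Groups were compared with limma 3.58.1 in R 4.3.3, all 12 arrays sharing 1 estimate of the spread (7 residual degrees of freedom), with p adjusted over all genes. The fit was tested on simulated data first. The 9 genes and the 11 other lists (147 of 155 entries measured) were chosen with earlier results of these data known. Named genes are the 9 members, up to 4 called genes of a list with the largest fold change, and the 3 genes most like a member. No replicate numbers were used as pairs: between day 6 cells and astrocytes, same-numbered arrays deviated together with r = 0.41, -0.01 and 0.22. Replicate 1 of MEF iPSCs deviated with that of day 6 cells (r = 0.41) and that of astrocytes (r = 0.40). Among all same-numbered pairs, 11 of 21 had r over 0.1. The labels give no batch, and a shared one was not tested. The alternatives were other probe sets or their mean, dim genes left out, cyclic loess, median centring, 16 subtracted before log2, only the compared groups, trend and robust eBayes, array weights, a stricter adjusted p (0.01), a call with no limit on fold, the replicate block and leaving out each array. Figures used Python 3.11.15 and matplotlib 3.10.9.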

Additional observations from a re-analysis of the deposited data

How the results depend on the processing

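Of 1449 log2 fold changes of the 9 genes set under an alternative, 1407 kept their sign and side of the threshold, and no called one turned its sign. Part of the 1449 could not change in size. A changed limit, another eBayes setting or an array left out of a group not compared leaves the fold change as it is. So does the mean of probe sets for a gene with 1 probe set. The share kept is therefore no measure of robustness. Without the fold limit, 7, 7 and 1 of the 9 genes passed in day 6 cells against astrocytes, day 6 cells against neural stem cells and between the iPSC groups, against 3, 4 and 0 with it. The counts over all genes without it were 9755, 7655 and 1150 in those comparisons, against 3360, 1771 and 148. They were 5896 in astrocyte iPSCs against day 6 cells (1218 with it), 9144 in neural stem cells against astrocytes (2907), and 10173 and 8441 in astrocyte iPSCs against astrocytes (4154) and against neural stem cells (2500). Uncalled values near 0 turned their sign. With cyclic loess these were Synm in day 6 cells (-0.01) and astrocyte iPSCs (-0.03) against neural stem cells and Nefh in neural stem cells against astrocytes (0.02, and 0.02 with median centring). Leaving out 1 array, log2 fold changes that crossed 0 ranged over Ina -0.01 to 0.11 in day 6 cells against astrocytes; Synm -0.17 to 0.09 in astrocyte iPSCs against day 6 cells; Gfap -0.10 to 0.02, Vim -0.33 to 0.08, Synm -0.16 to 0.09 and Nefh -0.11 to 0.23 in astrocyte iPSCs against MEF iPSCs; Nefh -0.13 to 0.02 in neural stem cells against astrocytes; Gfap -0.03 to 0.12, Synm -0.08 to 0.17 and Ina -0.59 to 0.23 in astrocyte iPSCs against neural stem cells. Of the 9 genes, 7 kept the order of their 5 group means with cyclic loess and 8 with median centring. Subtracting 16 before log2 made the largest fold changes larger in size, -6.25 for Gfap and 5.40 for Nefl in day 6 cells against astrocytes. The replicate number as a block changed no count of the 9 genes (3 called in day 6 cells against astrocytes with the replicate block, where 3364 of all genes were called). The labels do not say whether same-numbered arrays share more than the number. Dim genes left out removed Prph from the test. The number of arrays, 2 or 3 in a group, limits the precision.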
